A study of Mus musculus with 9 samples.

Results

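The B7 family and the checkpoint ligands are surface and secreted proteins with which Mϕs and other antigen-presenting cells set how strongly T cells respond. Here 9 genes of this kind were described, Cd80, Cd86, Icosl, Cd274, Pdcd1lg2, Cd276, Vsir, Havcr2 and Lgals9, which were found by the symbol of their Ensembl identifier among the 53379 genes of the deposited table. Mouse bone marrow cells of 3 C57BL/6 mice were cultured with 10 ng/ml of macrophage colony-stimulating factor (MCSF) for 3 days, which turns them into Mϕs. For 4 further days they received MCSF alone (Control), MCSF with 10 ng/ml of IL-4 (IL-4), or MCSF with 100 ng/ml of IL-6 (IL-6), according to the labels. The methods of the study give a higher dose of IL-4 than its label. The figure legends give another dose than the labels for both cytokines, and a shorter treatment. All groups carry MCSF throughout, so no group shows Mϕs without it. Each group has 3 libraries of polyadenylated RNA, and numbers #1 to #3 were taken to mark the mice.

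A T cell needs a second signal beside its antigen receptor. CD80 and CD86 give it through CD28, or withhold it when they bind CTLA-4 instead, and ICOSL gives a related signal through ICOS. PD-L1 (Cd274) and PD-L2 (Pdcd1lg2) bind PD-1 and restrain T cells. B7-H3 (Cd276) and VISTA (Vsir) are B7-like proteins, VISTA acting as a restraint on T cells, while TIM-3 (Havcr2) is an inhibitory receptor that Mϕs also carry and galectin-9 (Lgals9) is one of its ligands.

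Values are FPKM, fragment counts scaled to the length of the gene and the size of the library, which allow levels of different genes to be set side by side. A gene was called between groups where its limma adjusted p was under 0.05 (Benjamini-Hochberg over the 12824 genes whose mean FPKM reached 0.5) and its log2 fold change on the log2(FPKM + 0.1) scale reached 1 in either direction. That scale understates the change of genes of low level. Folds are ratios of mean FPKM, errors are SD over 3 libraries, and all 9 genes passed the level filter, Pdcd1lg2 with a control mean under it. In these bulk libraries, fewer cells of a type and less RNA per cell cannot be told apart.

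The starts of 4 genes are shown because the results turn on them: Pdcd1lg2 and Cd274, which lie side by side and differed from control by very different amounts with IL-4, Icosl, with the largest fall of the 9 genes with IL-4, and Havcr2, the gene called lower with both cytokines. Each is the RefSeq promoter window on GRCm38.p6, from 250 bases before to 50 bases after the start of the gene in RefSeq, on the plus strand, read 5′ to 3′. The RefSeq start can differ from the gene coordinates given below. Capitals mark matches, on either strand, to 6 motifs: a STAT6-type motif (TTCNNNNGAA), a STAT3-type motif (TTCNNNGAA), an IRF-type motif (GAAA, any 2 bases, GAAA), the NF-kB motif, a PU.1-type motif (GAGGAA) and a HIF-type motif (ACGTG).
Pdcd1lg2, chr19:29410669-29410968: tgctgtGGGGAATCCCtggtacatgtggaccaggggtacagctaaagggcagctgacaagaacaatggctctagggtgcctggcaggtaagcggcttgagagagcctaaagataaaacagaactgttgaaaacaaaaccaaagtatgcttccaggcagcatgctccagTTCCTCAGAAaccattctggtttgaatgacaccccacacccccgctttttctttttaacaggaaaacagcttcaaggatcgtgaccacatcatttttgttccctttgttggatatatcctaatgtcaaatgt
Cd274, chr19:29367188-29367487: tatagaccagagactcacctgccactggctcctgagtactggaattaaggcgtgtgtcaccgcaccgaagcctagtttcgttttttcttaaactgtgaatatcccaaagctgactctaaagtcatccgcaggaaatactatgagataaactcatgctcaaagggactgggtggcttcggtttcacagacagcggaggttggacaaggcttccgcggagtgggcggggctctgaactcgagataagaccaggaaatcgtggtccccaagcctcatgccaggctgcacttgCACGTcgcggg
Icosl, chr10:78069118-78069417: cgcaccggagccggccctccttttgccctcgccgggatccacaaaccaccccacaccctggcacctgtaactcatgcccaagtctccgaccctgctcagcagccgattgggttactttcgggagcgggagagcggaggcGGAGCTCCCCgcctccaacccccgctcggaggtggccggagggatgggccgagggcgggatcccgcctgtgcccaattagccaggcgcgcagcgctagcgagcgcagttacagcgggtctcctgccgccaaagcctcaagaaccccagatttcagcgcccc
Havcr2, chr11:46454681-46454980: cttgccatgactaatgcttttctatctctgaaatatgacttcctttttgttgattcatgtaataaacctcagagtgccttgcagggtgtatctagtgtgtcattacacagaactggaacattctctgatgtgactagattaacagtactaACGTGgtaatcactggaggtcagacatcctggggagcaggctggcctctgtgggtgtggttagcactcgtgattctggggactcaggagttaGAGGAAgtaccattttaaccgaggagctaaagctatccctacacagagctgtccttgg

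The window of Pdcd1lg2 held 1 STAT6-type match, TTCCTCAGAA, at position −82 from the start of the gene, which overlaps a PU.1-type match, and 1 NF-kB match. That of Cd274 held 1 HIF-type match, that of Icosl 1 NF-kB match, and that of Havcr2 a PU.1-type and a HIF-type match. Over all 32851 windows of the same length, 6.95% held the STAT6-type motif, 8.30% the STAT3-type, 3.44% the IRF-type, 8.46% the NF-kB, 28.3% the PU.1-type and 19.6% the HIF-type motif. Of the other genes, Lgals9 held 2 IRF-type and 2 PU.1-type matches, Cd276 held 1 PU.1-type match, and Cd80 and Vsir none of the 6 motifs. The Cd80 window (chr16:38458683-38458982) lies inside the gene coordinates given below and not at their edge. The RefSeq windows covered 8 of the 9 genes, and Cd86 had none. The matches describe letters only.

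The libraries held 29988160 to 39909571 fragments. Socs3, which STAT3 induces, and Arg1, which STAT6 induces in Mϕs, checked the treatments: on the log2 scale Socs3 was 5.12 above control in the IL-6 group and Arg1 10.58 above it in the IL-4 group. Arg1 was also called higher with IL-6 (2.39, limma adjusted p = 0.00557), though not in the set-adjusted fit described below (2.79, adjusted p = 0.103). Mϕ markers summed to 16732 to 19024 FPKM in Control, 6130 to 7134 in IL-4 and 20481 to 21554 in IL-6, with 5 of 9 called lower with IL-4, whereas the 7 T and NK cell markers summed to 2.45 FPKM at most in any library. Granulocyte markers fell with IL-4 (7 of 8 called lower, from 931 to 1600 FPKM in Control to 321 to 496 in IL-4) and summed to 1466 to 2071 FPKM in IL-6. All 8 of them and 5 of the 9 Mϕ markers were called higher with IL-6 than with IL-4, the comparison in which Cd86 and Icosl were also called higher. Of the 4 tested dendritic cell markers, Siglech (called in 18 of 19 alternatives) and Kit (in 4 of 19) were called lower with IL-4. Of the 4 below the level filter, a fit without the filter called Cd209a lower and Zbtb46 higher. The part of these cells in the results was not tested. The 6 B cell markers (summing to 20.6 to 52.7 FPKM in a library) had no call in any of the 3 comparisons (lowest adjusted p 0.139), and B cells also carry CD80, CD86 and ICOSL. The libraries also form 2 sets that match neither the groups nor the numbers #1 to #3. Of every 1000000 fragments, 30.4 to 46.2 came from genes of Paneth and goblet cells of the gut in Control #1 to #3 and IL-4 #1 (set A), and 0.0990 to 0.245 in IL-4 #2 and #3 and IL-6 #1 to #3 (set B). All controls are in set A and all IL-6 libraries in set B, so for IL-6 against control the set and the treatment cannot be told apart. Values of IL-4 #1 against the controls, of IL-6 against IL-4 #2 and #3, and of a set-adjusted fit, which rests on IL-4 #1 against IL-4 #2 and #3, are given beside the results. IL-4 #3 stands apart from the other IL-4 libraries in many genes, and values without it are given beside many results that rest on it. Without it limma no longer called Adgre1 (log2 fold change −0.91), Csf1r (−0.91), Mpo (−1.24, adjusted p = 0.0523) or Kit (−0.86) lower with IL-4. Between the cytokines Adgre1 (0.79) and Csf1r (0.88) then also lost their calls. The set term was estimated in part from IL-4 #3, and no set-adjusted value without this library is given.

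IL-4 raised 1 of the 9 genes and lowered 5, with Cd80, Cd274 and Cd276 not called. For comparison, 13.9% of all tested genes were called with IL-4, 5.02% in the upward and 8.89% in the downward direction. The median log2 fold change of the 9 genes was −1.05, and that of all tested genes was −0.20. Rescaling each library by its median ratio moved the median of all genes to −0.00 and the calls from 644 higher and 1140 lower to 838 higher and 868 lower, and Vsir and Lgals9 then fell short of the fold threshold. The set-adjusted fit called 3 of the 9 genes with IL-4, Pdcd1lg2, Cd86 and Icosl, and of all tested genes 4.00% higher and 4.66% lower.

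With IL-6, Pdcd1lg2 was called higher and Havcr2 lower than in control, both by amounts close to the fold threshold. The other 7 genes were not called. Set and treatment cannot be told apart in this comparison. Of all tested genes, 5.38% were called with IL-6, 3.49% upward and 1.89% downward. The median log2 fold change was −0.08 over the 9 genes and −0.00 over all tested genes. The set-adjusted limma fit called 0 of the 9 genes (3 at an unadjusted p under 0.05, Cd274, Cd276 and Pdcd1lg2). The limma fit with no set term and without IL-6 #3 also called 0 (4 at an unadjusted p under 0.05). Limma voom on the recovered fragments called 1, Havcr2. Of all tested genes the set-adjusted fit called 1.15% higher and 0.312% lower. Without IL-4 #3, limma called 4, with Cd274 and Cd276 added, against 5.19% of all tested genes higher and 2.67% lower.

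Between the cytokines, 4 genes were called: Cd86 and Icosl were higher with IL-6, and Pdcd1lg2 and Cd276 were lower. Of all tested genes, 20.4% were called here, 13.6% higher with IL-6 and 6.82% lower. The 3 comparisons share libraries, so their values are set side by side and not counted as separate evidence.

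**Figure D1:**
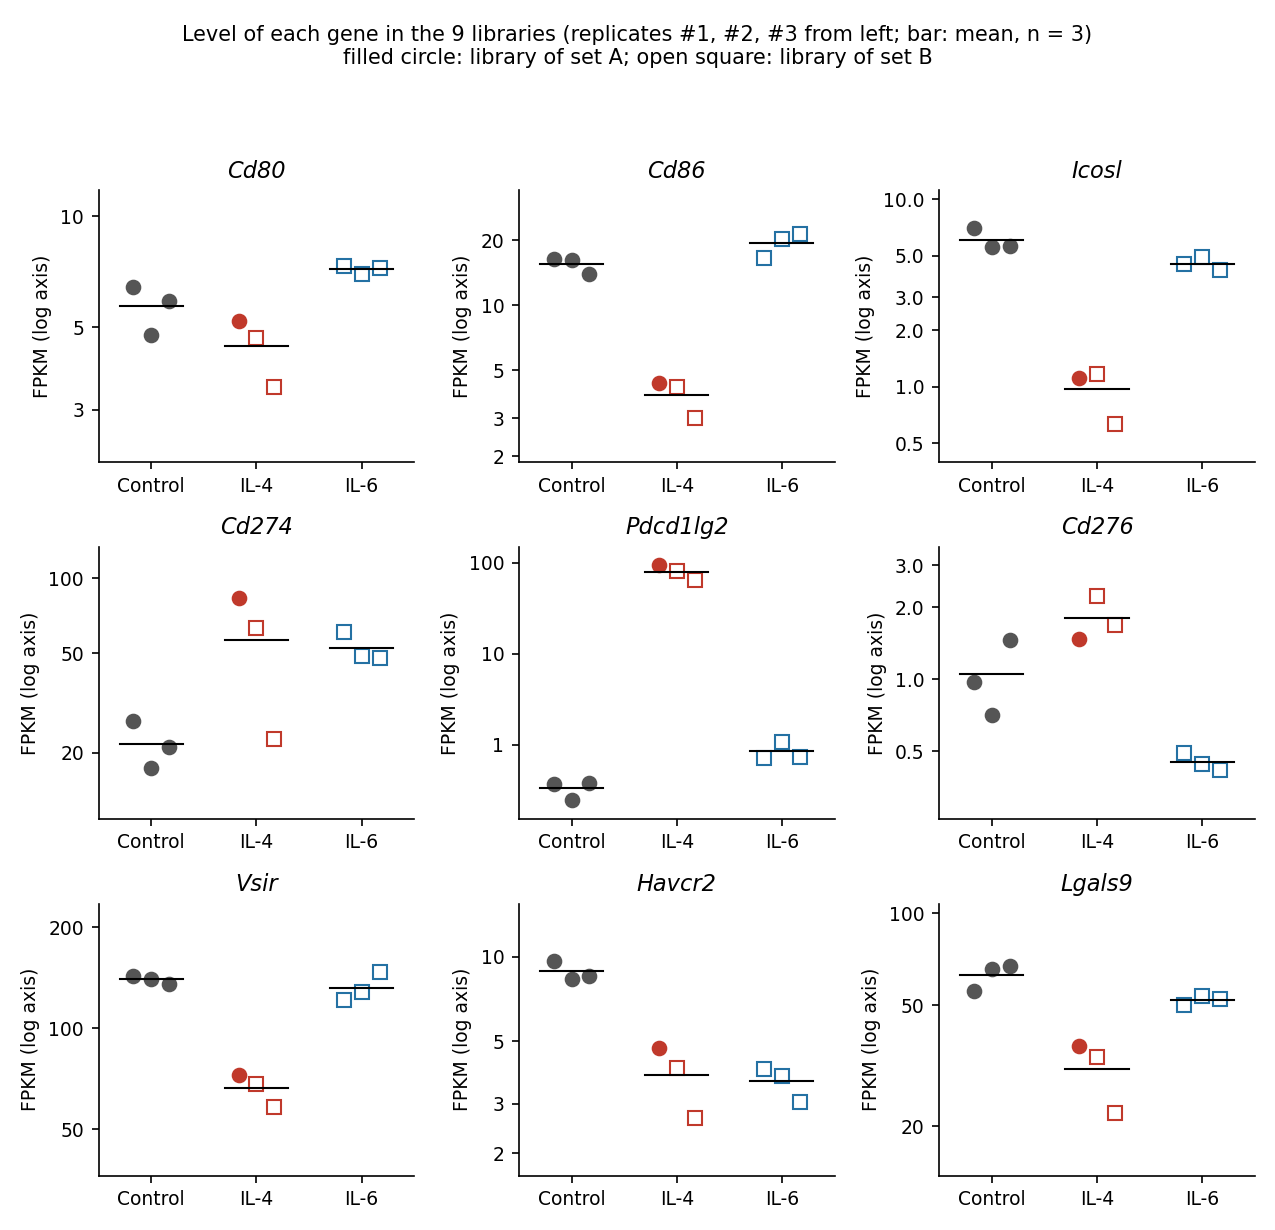
FPKM (log axis) of each of the 9 genes in the 9 libraries, with replicates #1, #2 and #3 from left to right in each group and a bar at the mean of 3; filled circles are the libraries of set A and open squares those of set B. Pdcd1lg2 lies at 64.7 to 93.6 FPKM in the IL-4 libraries and at 1.08 or less elsewhere, and Cd274 in IL-4 #3 lies beside the control libraries.

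In Control, VISTA and galectin-9 transcripts led. Vsir had 139.9 ± 3.87 FPKM (SD, n = 3), 53.4% of the summed FPKM of the 9 genes, and Lgals9 had 62.8 ± 6.26, 24.0% of the sum. Cd274 (21.7 ± 4.81), Cd86 (15.5 ± 1.37), Havcr2 (8.87 ± 0.695), Icosl (6.08 ± 0.808), Cd80 (5.70 ± 0.860), Cd276 (1.05 ± 0.382) and Pdcd1lg2 (0.330 ± 0.0756) followed in that order. Icosl and Cd80 were the only neighbors in it whose ranges over the 3 libraries overlapped. Vsir stood above 97.6% of tested genes in Control.

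With IL-4 the order was another one. Pdcd1lg2 (79.6 ± 14.5 FPKM), the lowest of the 9 genes in Control, came first with 32.1% of the sum, followed by Vsir (66.4 ± 7.31) and Cd274 (56.4 ± 31.0), with overlapping ranges from Pdcd1lg2 through Lgals9 (30.8 ± 7.72). Icosl (0.976 ± 0.296) came last. With IL-6 the order began with Vsir (132.3 ± 13.2 FPKM), then Cd274 (52.5 ± 7.33) and Lgals9 (52.0 ± 1.64), whose ranges overlapped, and ended with Cd276 (0.452 ± 0.0384).

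The ligands of CD28 and ICOS were lower with IL-4, except for Cd80. Cd86 lies on chromosome 16 (chr16:36603869-36666081, minus strand; gene coordinates here are GENCODE M21 on GRCm38). It had 16.3, 16.2 and 13.9 FPKM in Control #1 to #3, 4.36, 4.18 and 3.00 in IL-4, and 16.5, 20.2 and 21.3 in IL-6. All 3 IL-4 libraries were far below the others, and the IL-6 libraries lay just above the controls. Cd86 fell 4.02-fold with IL-4 (log2 fold change −1.99, SE 0.175, adjusted p = 0.000132) and was 5.02-fold higher with IL-6 than with IL-4 (2.31, adjusted p = 3.64e-05). Within set A, IL-4 #1 was 3.55-fold below the controls, and within set B the IL-6 mean was 5.38-fold above IL-4 #2 and #3. Its difference between IL-6 and control, 0.32, was not called, with a 95% interval from −0.09 to 0.72.

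Icosl (chr10:78069302-78083913, plus strand) had the largest fall of the 9 genes with IL-4. It had 7.01, 5.56 and 5.67 FPKM in Control, 1.12, 1.17 and 0.635 in IL-4 and 4.51, 4.91 and 4.23 in IL-6. The 3 groups did not overlap, with IL-6 just under Control and IL-4 at the bottom. It fell 6.23-fold with IL-4 (log2 fold change −2.56, SE 0.227, adjusted p = 0.000142), on 117 to 177 fragments in the IL-4 libraries. IL-4 #1 was 5.43-fold below the controls of its own set. With IL-6 it was 4.66-fold above IL-4 (2.15, adjusted p = 0.000231), and its log2 fold change against control was −0.41 (−0.93 to 0.11).

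Cd80 (chr16:38455561-38496335, plus strand), the other ligand of CD28 and CTLA-4, was not called in any comparison. It had 6.45, 4.76 and 5.90 FPKM in Control, 5.19, 4.67 and 3.46 in IL-4 and 7.35, 6.97 and 7.25 in IL-6. IL-4 and Control overlapped, and IL-6 lay above both. Its log2 fold change was −0.36 for IL-4 (95% interval −0.78 to 0.05), 0.34 for IL-6 (−0.08 to 0.75), and 0.70 between IL-6 and IL-4, which passed the adjusted p (0.0185) and not the fold.

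The 2 ligands that share CD28 and CTLA-4 changed place with IL-4. Cd86 was 2.53, 3.40 and 2.36 times Cd80 in the control libraries and 2.25, 2.89 and 2.94 times in the IL-6 libraries, and 0.840, 0.895 and 0.868 times in the IL-4 libraries. The log2 ratio of Cd86 to Cd80 was lower in all 3 IL-4 libraries than in any other, by 1.63 against control (two-sided exact permutation test, p = 0.1, the smallest that 3 against 3 allows, adjusted p = 0.15 over 9 ratio tests). IL-6 and control overlapped (difference −0.02, exact permutation p = 0.9).

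**Figure D2:**
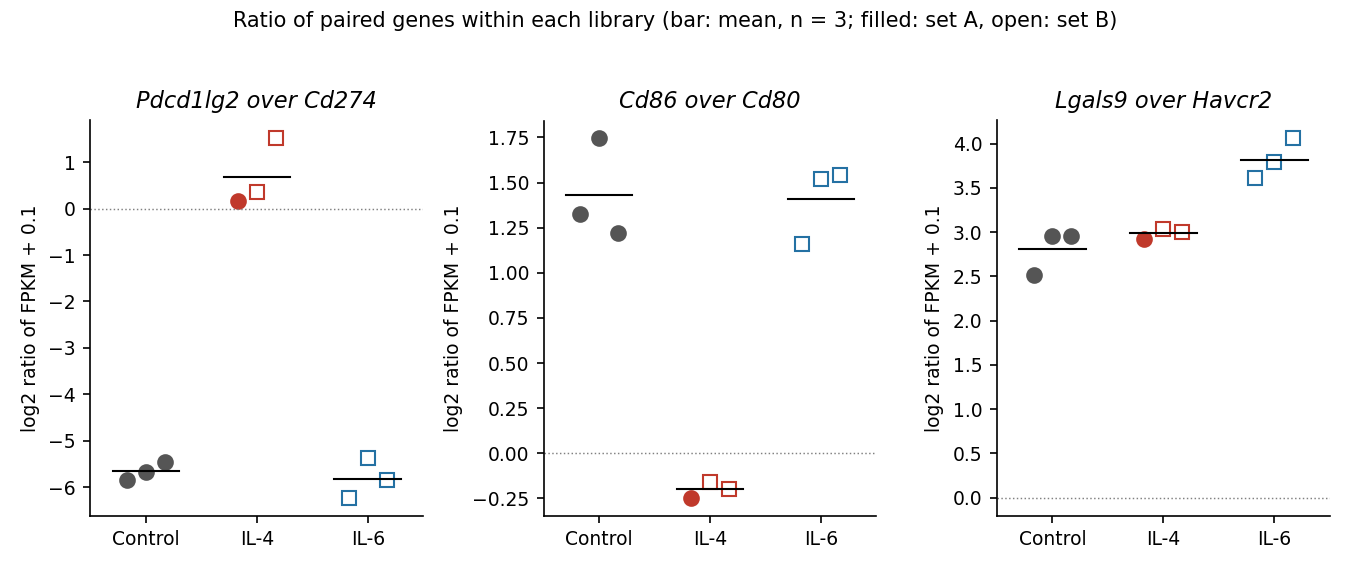
Log2 ratio of FPKM + 0.1 of 3 gene pairs within each library, with a bar at the mean of 3; a value of 0 means equal levels. Pdcd1lg2 is above Cd274 and Cd86 below Cd80 in the 3 IL-4 libraries alone, and the ratio of Lgals9 to Havcr2 is highest in the 3 IL-6 libraries.

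The PD-1 ligands gave the largest change and the least settled one. Pdcd1lg2 (chr19:29410919-29471161, plus strand) had 0.366, 0.243 and 0.381 FPKM in Control, 93.6, 80.5 and 64.7 in IL-4 and 0.714, 1.08 and 0.732 in IL-6. These are 12 to 22 fragments a library in Control, 4012 to 5261 in IL-4 and 37 to 58 in IL-6. All IL-4 libraries were far above the rest. The rise with IL-4 was 241-fold (log2 fold change 7.53, SE 0.225, adjusted p = 1.6e-06), and 283-fold for IL-4 #1 against the controls of its set. IL-6 lay 94.5-fold below IL-4 (−6.41, adjusted p = 1.06e-06), and 86.2-fold below IL-4 #2 and #3 of its set.

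The rise of Pdcd1lg2 with IL-6 was 2.55-fold (log2 fold change 1.13, SE 0.225, adjusted p = 0.0194), with all 3 IL-6 libraries above all controls. It rests on few fragments, and its call was lost with a pseudocount of 1 (0.47, adjusted p = 0.113) and with limma voom (1.31, 0.0843). In the set-adjusted fit the difference was larger (1.50) and not called (adjusted p = 0.132). The call was also lost without Control #2 (0.97, 0.0759), Control #3 (1.22, 0.054), IL-6 #2 (0.95, 0.0781) or IL-6 #3 (1.20, 0.0576). The identifier of Pdcd1lg2 in the table is of another version than in M21, and its fragments were read with an inferred exon length of 1645 bases. The antisense gene A930007I19Rik runs within it without sharing exon bases.

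Cd274 (chr19:29367455-29388095, plus strand) was not called against control with either cytokine. It had 26.9, 17.3 and 20.95 FPKM in Control, 83.7, 63.0 and 22.6 in IL-4 and 60.9, 48.6 and 47.8 in IL-6. The 3 IL-6 libraries were all above the controls, IL-4 #1 and #2 were above all other libraries, and IL-4 #3 lay inside the control range. The ratio of means was 2.60 with IL-4 (log2 fold change 1.20, SE 0.435, adjusted p = 0.0799) and 2.42 with IL-6 (1.28, adjusted p = 0.127). Without IL-4 #3, which also narrows the spread used for IL-6, both were called (1.76, adjusted p = 0.000464, and 1.28, adjusted p = 0.00233). The fit of IL-6 and control alone also called it (adjusted p = 0.00405), as did median-ratio rescaling for IL-4 (1.40, adjusted p = 0.0228). Set-adjusted values were 1.96 (adjusted p = 0.0542) and 2.43 (0.138). In set A, IL-4 #1 was 3.85-fold above the controls, and in set B the mean of IL-6 was 1.23 times that of IL-4 #2 and #3, while over all libraries IL-6 and IL-4 differed by 0.08 (−0.92 to 1.08). The antisense gene AC119228.1 shares 511 exon bases with Cd274, and it was not analysed here; the library kit keeps strand, but whether the counting used it is not given in the sources used here.

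The 2 PD-1 ligands together made 17.6 to 27.2 FPKM in Control, 87.3 to 177.2 in IL-4 and 48.6 to 61.6 in IL-6. PD-L2 was 1.34% to 1.79% of that sum in Control, 52.8%, 56.1% and 74.1% in IL-4 #1, #2 and #3, and 1.16% to 2.17% in IL-6. Thus Cd274 was 55.0 to 73.4 times Pdcd1lg2 in Control and 45.0 to 85.3 times in IL-6, and in IL-4 the order was turned in all 3 libraries. The log2 ratio of Pdcd1lg2 to Cd274 was 6.33 higher with IL-4 than in control and 6.49 lower with IL-6 than with IL-4 (exact permutation p = 0.1 for both, adjusted p = 0.15). Between IL-6 and control it differed by −0.16 (exact permutation p = 0.7), with overlapping libraries.

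**Figure D3:**
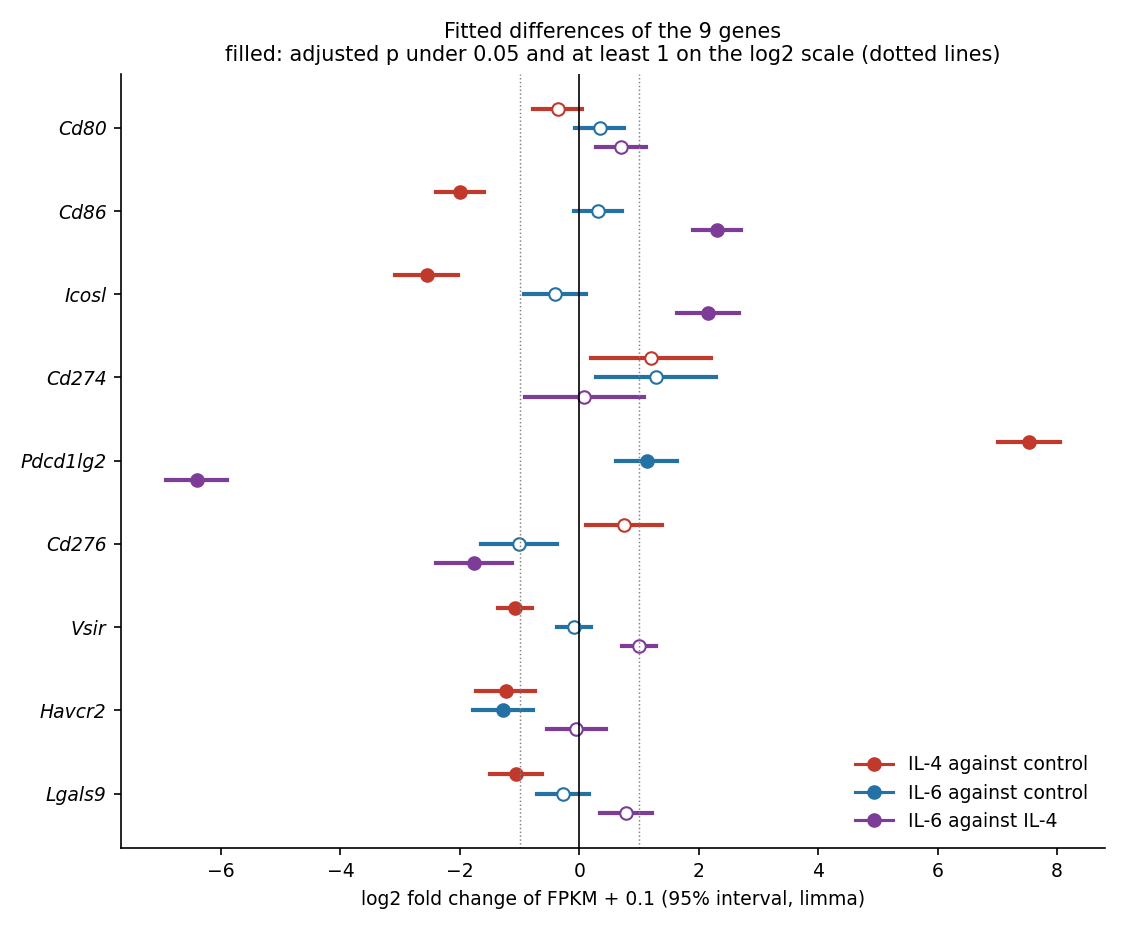
Log2 fold change of FPKM + 0.1 with its 95% interval (limma) for each of the 9 genes in the 3 comparisons; filled points passed the adjusted p and the fold threshold, which the dotted lines mark. Pdcd1lg2 with IL-4 (7.53) lies far from the rest, and the intervals of Cd274 are the widest.

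Cd274 and Pdcd1lg2 start 43.5 kb apart on chromosome 19, and 6 other protein-coding genes lie within 200 kb of them. Upstream, Jak2, the kinase that many cytokine receptors use, was called higher with IL-4 (log2 fold change 1.16, adjusted p = 0.0313). Jak2 had 35.0, 30.8 and 13.6 FPKM in IL-4 #1, #2 and #3 and 9.49 to 12.7 in Control, so IL-4 #3 again lay nearest the controls, and its call was lost in 10 of 19 alternatives. Insl6, an insulin-like gene between Jak2 and Cd274, rose from 3.88, 5.04 and 4.71 FPKM to 14.1, 14.4 and 25.1 (1.90, adjusted p = 0.000642) and kept its call in 20 of 20 alternatives, with IL-4 #3 the highest. With IL-6, Jak2 (0.85, adjusted p = 0.174) and Insl6 (0.62, adjusted p = 0.159) were not called. Plgrkt, which runs head to head with Cd274, had −0.34 (IL-4) and −0.12 (IL-6), Ric1 had 0.99 and 1.42, and Ermp1 had −0.18 and −0.06, with no call among the 3 (lowest adjusted p 0.0777). Rln1 was listed at 0 in all but Control #3, which had 0.00814 FPKM.

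**Figure D4:**
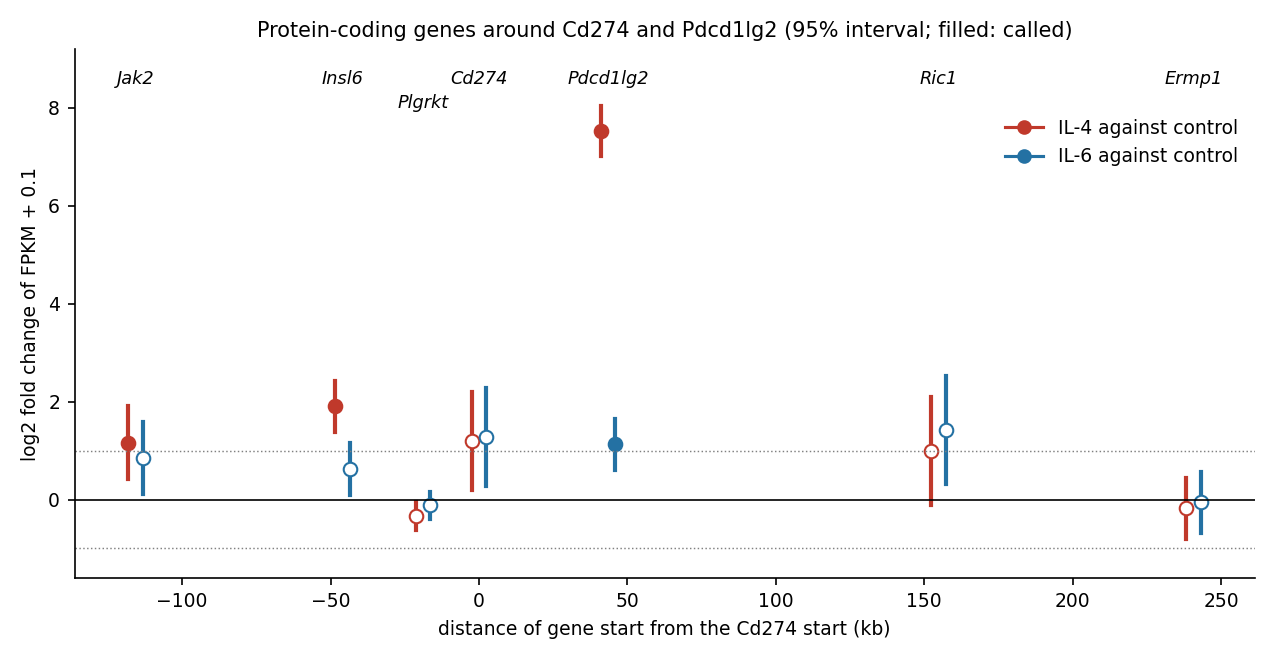
Log2 fold change of FPKM + 0.1 with its 95% interval (limma) against the distance in kb between the lowest coordinate of each gene and that of Cd274, with IL-4 against control in red and IL-6 against control in blue; filled points were called. Jak2, Insl6 and Pdcd1lg2 were called higher with IL-4, and Pdcd1lg2 alone with IL-6.

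VISTA transcripts fell with IL-4, and those of B7-H3 differed between the cytokines. Vsir (chr10:60346851-60372684, plus strand) had 143.6, 140.1 and 135.9 FPKM in Control, 72.4, 68.5 and 58.2 in IL-4 and 121.4, 128.5 and 147.0 in IL-6. The IL-4 libraries were below all others, and IL-6 and Control overlapped. The fall with IL-4 was 2.11-fold (log2 fold change −1.08, SE 0.125, adjusted p = 0.000496), close to the fold threshold: it was −0.88 after median-ratio rescaling, −0.95 set-adjusted, −0.98 with length and GC trends removed and −0.99 without IL-4 #3, with an adjusted p of 0.0127 at most in these. IL-6 against control gave −0.08 (−0.37 to 0.20). IL-6 was 1.99-fold above IL-4 (log2 fold change 0.996, adjusted p = 0.00056), just under the fold threshold. Vsir lies on the opposite strand inside Cdh23 and shares no exon bases with it.

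Cd276 (chr9:58524298-58555437, minus strand) was low in all groups. It had 0.979, 0.711 and 1.46 FPKM in Control, 1.47, 2.24 and 1.69 in IL-4 and 0.494, 0.444 and 0.418 in IL-6, from 47 to 248 fragments a library. All IL-4 libraries were above and all IL-6 libraries below the controls, though Control #3 and IL-4 #1 nearly met. Neither difference from control was called (log2 fold change 0.75, adjusted p = 0.0828, and −1.01, adjusted p = 0.064), and the difference between the cytokines was (−1.76, SE 0.277, adjusted p = 0.00178), a 3.98-fold lower level with IL-6. With a pseudocount of 1 that difference was −0.94 and under the fold threshold. Gm10657, which shares 416 exon bases with Cd276 on the other strand, had 0.0829 FPKM in Control #3 and was listed at 0 in the other libraries.

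Transcripts of TIM-3 were called lower than in control with both cytokines, and those of galectin-9 with IL-4. Havcr2 (chr11:46454935-46481255, plus strand) had 9.67, 8.37 and 8.58 FPKM in Control, 4.74, 4.03 and 2.66 in IL-4 and 4.00, 3.77 and 3.05 in IL-6. Both treated groups were below all controls and overlapped each other. It fell 2.33-fold with IL-4 (log2 fold change −1.23, SE 0.218, adjusted p = 0.00462) and 2.46-fold with IL-6 (−1.28, adjusted p = 0.00976), and the cytokines differed by −0.05 (−0.55 to 0.45). Within set A, IL-4 #1 was 1.87-fold below the controls. Set-adjusted values were −0.89 (adjusted p = 0.0859) and −0.76 (0.272), and without IL-6 #3 the call with IL-6 was lost (−1.17, adjusted p = 0.0513).

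Lgals9 (chr11:78962974-78984946, minus strand) had 55.6, 65.5 and 67.2 FPKM in Control, 36.6, 33.8 and 22.0 in IL-4 and 50.2, 53.4 and 52.4 in IL-6. The groups did not overlap, with IL-6 just under Control. It fell 2.04-fold with IL-4 (log2 fold change −1.05, SE 0.190, adjusted p = 0.00506), a call lost after median-ratio rescaling (−0.85), in the set-adjusted fit (−0.77, adjusted p = 0.0929) and without IL-4 #3 (−0.83). With IL-6 the difference was −0.27 (−0.70 to 0.17), and 0.15 when set-adjusted.

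The ratio of Lgals9, the ligand, to Havcr2, its receptor, was highest in the IL-6 libraries, which are all of set B. Lgals9 was 5.75, 7.82 and 7.83 times Havcr2 in Control, 7.71, 8.40 and 8.28 times in IL-4 and 12.5, 14.2 and 17.2 times in IL-6. The log2 ratio was 1.01 higher with IL-6 than in control and 0.83 higher than with IL-4, with no overlap (exact permutation p = 0.1 for both, adjusted p = 0.15). IL-4 and control overlapped (0.18, exact permutation p = 0.3).

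The other co-stimulatory and checkpoint genes were read from 9 lists of 45 genes, of which 27 passed the level filter. With IL-4, 4 of the 27 were called higher and 5 lower, beside 5.02% and 8.89% of all tested genes, and their median log2 fold change of −0.21 was close to the −0.20 of all genes. With IL-6, 6 were called higher and 2 lower (3.49% and 1.89% of all tested genes), with a median of 0.22. Without IL-4 #3 the counts were 2 and 2 with IL-4 (6.46% and 8.07% of all tested genes) and 7 and 4 with IL-6 (5.19% and 2.67%). Set-adjusted they were 2 and 2 with IL-4 (4.00% and 4.66%) and 2 and 1 with IL-6 (1.15% and 0.312%). Between the cytokines 12 were called higher with IL-6 and 3 lower (13.6% and 6.82%). Of the genes under the level filter, 15 could be fitted without it: with IL-4 this called Tigit, Cd96 and Nectin1 higher and Btnl2 lower (of all genes in that fit, 2.78% higher and 3.85% lower). With IL-6 against control it called none of the 15, with 2 at an unadjusted p under 0.05.

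Of 9 receptors that T and NK cells carry for these and related ligands, Cd28, Btla and Cd226 passed the level filter. The receptors of the PD-1 and CD28 family other than Cd28 and Btla, which are Pdcd1, Ctla4 and Icos, had 0.128 FPKM or less in every library. Tigit, an inhibitory receptor for nectin-family ligands, had 0 to 0.035 FPKM in Control and IL-6 and 0.486, 0.343 and 0.312 in IL-4 (log2 fold change 1.98, adjusted p = 0.00173 in the limma fit without the filter), and Cd96, a related receptor, had 0.052 to 0.168 in Control, 0.559 to 0.764 in IL-4 and 0.276 to 0.492 in IL-6 (2.01 with IL-4, adjusted p = 0.00432). The T and NK cell markers summed to 0.843 to 0.941 FPKM in Control and 1.76 to 2.45 in IL-4. With IL-4, limma without the filter called Cd8a higher (1.76, adjusted p = 0.012), Cd5 lower (−1.46, adjusted p = 0.0143) and no other of these markers. The part of T and NK cells in the values of Tigit and Cd96 was not tested. Cd28 had the highest control level of the 9, with 37.2, 23.3 and 28.6 FPKM in Control, above Cd86 and Cd80 there. It fell to 4.94, 4.56 and 1.13 with IL-4 (log2 fold change −3.25, adjusted p = 0.00217), a call kept in 20 of 20 alternatives, and had 10.2, 11.8 and 11.9 with IL-6 (−1.36, adjusted p = 0.153, called without IL-4 #3). Btla, an inhibitory receptor that binds HVEM, fell with IL-4 (−1.35, adjusted p = 0.0289, and −0.99 without IL-4 #3, short of the fold threshold). Cd226, an activating receptor for nectin-family ligands, rose with IL-6 (2.96, adjusted p = 0.0347). Both calls were lost with the mouse number as a block (adjusted p = 0.0627 and 0.0601) and in 11 of 18 alternatives each.

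Of 4 tested TNF superfamily ligands and receptors, 3 were called higher with IL-6, beside 3.49% of all tested genes. With IL-4, 1 was called higher and 1 lower, beside 5.02% and 8.89% of all tested genes. Tnfsf14 (LIGHT), a ligand of HVEM, had 2.11, 2.33 and 2.02 FPKM in Control, 1.16, 0.941 and 0.876 in IL-4 and 17.1, 21.1 and 22.5 in IL-6. IL-6 lay above and IL-4 below all controls: its log2 fold change was 3.16 for IL-6 (adjusted p = 2.91e-05, called in 19 of 19 alternatives) and −1.05 for IL-4 (adjusted p = 0.00236, called in 13 of 19, and −0.97 without IL-4 #3). Tnfsf9 (4-1BB ligand) rose with IL-6 from 0.678 to 0.955 FPKM to 3.92 to 4.58 (2.26, adjusted p = 0.00201), a call lost in the set-adjusted fit (1.76, adjusted p = 0.132). Cd40, the receptor through which T cells activate Mϕs, was called higher with both (1.05, adjusted p = 0.0057, and 1.22, adjusted p = 0.00714). Set-adjusted values were 1.08 (adjusted p = 0.0581) and 1.27 (0.158), so both calls were lost on the adjusted p and not on the fold. The call with IL-4 was also lost without IL-4 #3 (0.89) or Control #2. Tnfrsf14 (HVEM) was not called against control (−1.48 and 1.19). It was higher with IL-6 than with IL-4 (2.68, adjusted p = 0.0271, and 1.73 without IL-4 #3). That call was lost on leaving out each IL-6 library in turn. Cd70 was listed at 0 in all libraries.

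Among the 3 tested nectin-family ligands, 1 was called with each cytokine, beside 13.9% of all tested genes with IL-4 and 5.38% with IL-6. Nectin2, a ligand of CD226 and TIGIT, had 1.85, 2.24 and 1.91 FPKM in Control, 2.35, 2.18 and 2.64 in IL-4 and 11.7, 11.2 and 11.9 in IL-6, so only the IL-6 libraries stood apart (log2 fold change 2.48, adjusted p = 3.74e-05, and 2.46 set-adjusted). Nectin4 had 7.38, 6.62 and 7.05 FPKM in Control, 0.672, 0.590 and 0.268 in IL-4 and 6.85, 7.06 and 7.02 in IL-6. It fell with IL-4 (−3.61, adjusted p = 4.71e-05), and IL-6 differed from control by −0.01. Pvr had 0.76 with IL-6 and was under the fold threshold.

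**Figure D5:**
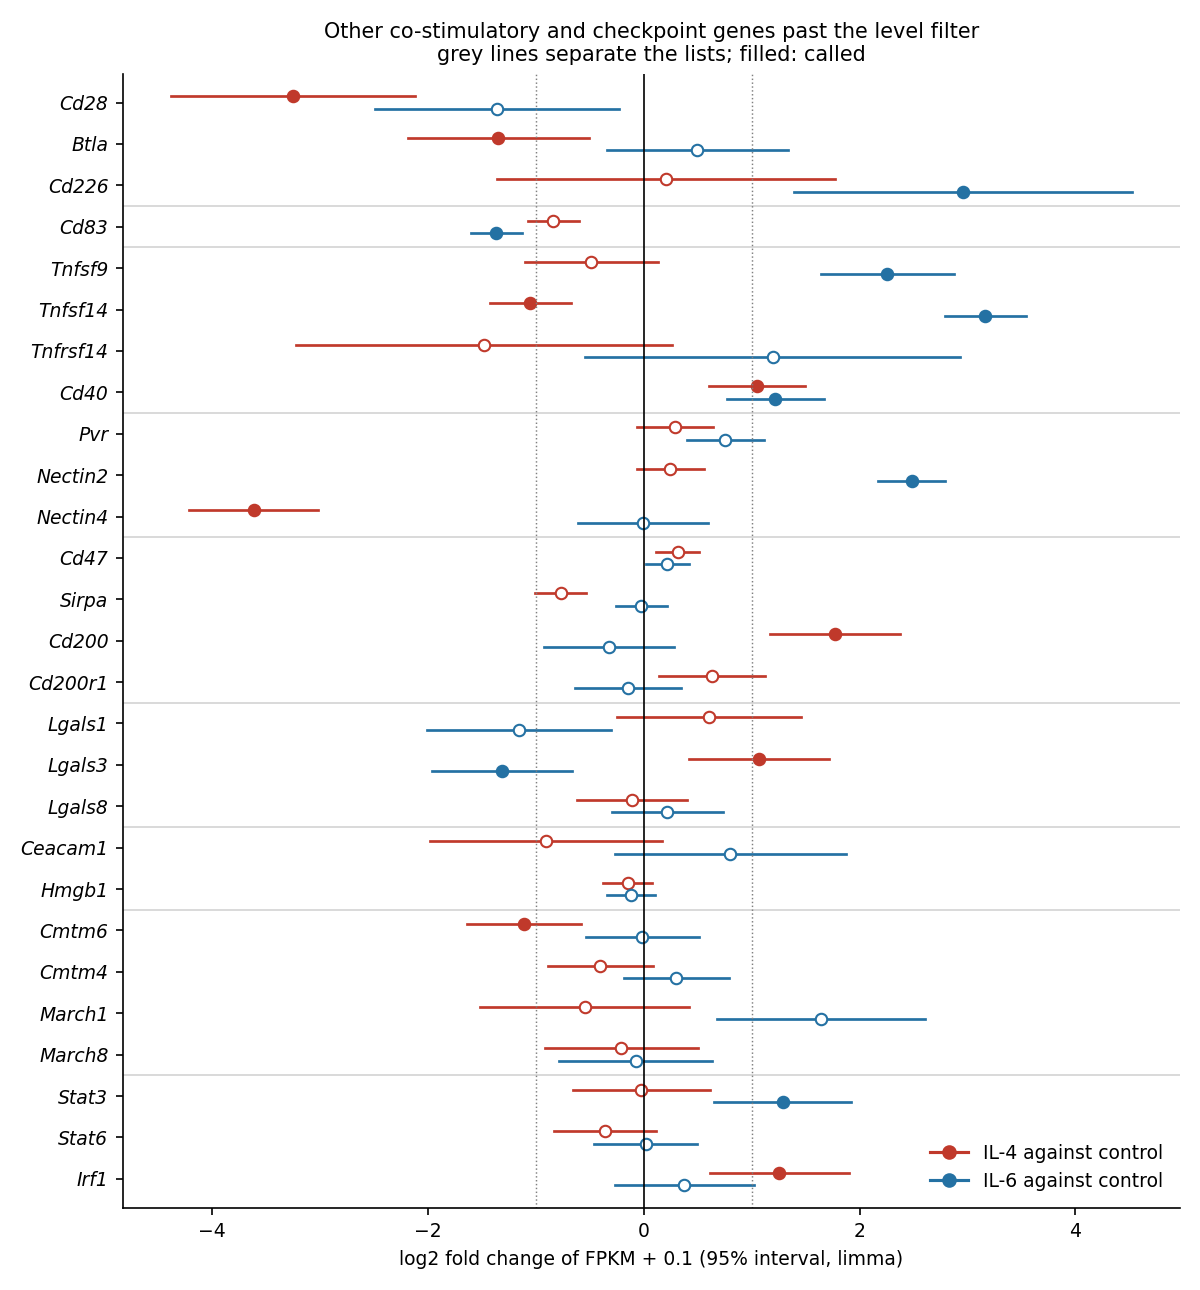
Log2 fold change of FPKM + 0.1 with its 95% interval (limma) for the 27 other co-stimulatory and checkpoint genes that passed the level filter, with IL-4 against control in red and IL-6 against control in blue; filled points were called and grey lines part the lists. Cd28 and Nectin4 have the largest falls with IL-4, and Tnfsf14, Cd226 and Nectin2 the largest rises with IL-6.

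Of the remaining B7-like and butyrophilin genes 1 of 5 was tested. Cd83, a marker of antigen-presenting cell maturation, fell with IL-6 (log2 fold change −1.37, adjusted p = 0.000215) in 20 of 20 alternatives, from 47.4, 53.8 and 48.5 FPKM to 18.9, 18.5 and 20.5, and had −0.84 with IL-4. Vtcn1, Btn1a1 and Btn2a2 were listed at 0 in all libraries but 1 of Vtcn1. Of the CD47 and CD200 axes (4 tested), Cd200, which restrains Mϕs through its receptor, rose with IL-4 (1.77, adjusted p = 0.00195) and had −0.32 with IL-6. Of 3 other galectins, Lgals3 was called higher with IL-4 (1.07, adjusted p = 0.0264) and lower with IL-6 (−1.31, adjusted p = 0.0275). Set-adjusted values were 0.65 (adjusted p = 0.342) and −1.94 (0.104), and both calls were lost. Leaving out IL-4 #3 (0.76) also ended the call with IL-4. Each of the 2 calls was kept in 13 of 20 alternatives. Lgals1 was not called against control. It was lower with IL-6 than with IL-4 (−1.76, adjusted p = 0.00793, and −1.32 without IL-4 #3), called in 19 of 19 alternatives. Of the other TIM genes and TIM-3 ligands (2 of 5 tested), Ceacam1 was not called against control (−0.91 for IL-4, 0.80 for IL-6), and was higher with IL-6 than with IL-4 (1.71, adjusted p = 0.0238), a call lost on leaving out each IL-6 library in turn; without IL-4 #3 the difference was 1.07.

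Cmtm6, which keeps PD-L1 protein from being degraded, was the only one of 4 tested regulators of PD-L1 and CD86 protein to be called against control, lower with IL-4 (log2 fold change −1.11, adjusted p = 0.00947); the call was lost without IL-4 #3 (−0.82) and in the set-adjusted fit (−0.72, adjusted p = 0.159). March1, a ligase that removes CD86 from the surface, had 1.64 with IL-6 (adjusted p = 0.0512, called without IL-4 #3) and was 2.19 higher with IL-6 than with IL-4 (adjusted p = 0.0052). Of the 3 transcription factors reported, Irf1, which activates Cd274 after interferon, was called with IL-4 (1.26, adjusted p = 0.0132, kept in 18 of 20). Stat3, which carries the IL-6 signal, was called with IL-6 (1.29, adjusted p = 0.0274), a call kept in 12 of 20 alternatives. The Stat3 call was lost without any single control or IL-6 library and in the set-adjusted fit (1.95, adjusted p = 0.0903). Stat6 was not called in any comparison.

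The genes most like each called gene over the 9 libraries, by Pearson's r of log2(FPKM + 0.1) as a description, were as follows. Pdcd1lg2 ran with Rnase2a (r = 0.997), Plekhf1 (0.997) and Mmp13 (0.995), Cd86 with Gramd1a (0.998), Pygl (0.996) and Trim11 (0.996), and Icosl with Stab1 (0.998), Cul9 (0.996) and Hpgds (0.996). Vsir ran with Tnfrsf13b (0.996), Ctdsp1 (0.992) and C5ar2 (0.992), and Lgals9 with Ddx23 (0.992), Rbm3 (0.990) and Decr2 (0.989). Havcr2, with Cd99l2 (0.981), Laptm5 (0.981) and Enc1 (0.973), and Cd276, with Pwp2 (0.972), Cebpz (0.972) and Apbb2 (0.966), had the least close partners. The points share their libraries, groups and depth, and the highest r over all tested genes were taken.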

How the data were processed

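RNA-seq values of 9 libraries (3 Control, 3 IL-4 and 3 IL-6) were analysed from 1 table of FPKM that the authors deposited. The submitters' notes and methods name STAR 2.4.2a, GRCm38 and Cufflinks 2.2.1; the low values are whole fragments over GENCODE M21 exons (100.0% of 141433 values within 0.05 fragments), so the program and annotation are not settled. Gene identifiers matched M21 with version for 94.8%. For Cd80 and Pdcd1lg2, whose versions differ, the exon length was the smallest that made all 9 values whole. A filter by the authors is not stated, and all 9 value columns matched a sample.

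FPKM were fitted as log2(FPKM + 0.1) with limma 3.58.1 (R 4.3.3), 3 groups in one model, trend and robust options, over genes whose mean FPKM reached 0.5, with Benjamini-Hochberg adjustment. Every adjusted p of a gene comes from this fit unless an alternative is named. Ratios of gene pairs were compared by two-sided exact permutation tests of 3 against 3 libraries, adjusted over 9 tests. The fit was first tested on simulated data.

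The 9 genes and the lists were chosen with earlier results of these data known, so no pattern is independent evidence. Named are the 9 genes, list genes that were called or used as checks, the 3 genes most like each called gene, and protein-coding genes within 200 kb of Cd274 or Pdcd1lg2. Further list genes in the text (Pdcd1, Ctla4, Icos, Cd70, Pvr, Vtcn1, Btn1a1, Btn2a2 and Stat6) were named after their values were seen. So were Tigit, Cd96, Nectin1, Btnl2, Cd209a, Zbtb46, Cd8a and Cd5 from the fit without the level filter. The list of transcription factors held 1 more gene, which is not reported here and is in no count.

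The numbers #1 to #3 were taken as mouse numbers that pair the libraries across groups. Deviations from the group means of same-numbered libraries had r of 0.521, −0.415 and 0.0777 (Control and IL-4), 0.408, 0.201 and 0.166 (Control and IL-6), and 0.281, −0.0612 and 0.153 (IL-4 and IL-6). The set of libraries was defined by 5 Paneth and goblet fragments in 1000000; skeletal muscle transcripts made 3.92 to 13.8 in 1000000 in set A and 19.0 to 27.4 in set B. Alternatives were 2 other pseudocounts, 2 other filters, median-ratio rescaling, quantile normalization, the compared groups alone, the mouse as a block, the set in the model, limma voom, an adjusted p alone and leaving out each library; removing length and GC trends was added after seeing the data. Promoter windows are from RefSeq (GRCm38.p6). Tables were made in Python 3.11.15 with pandas 2.3.3, and plots with matplotlib 3.10.9.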

Additional observations from a re-analysis of the deposited data

How the results depend on the processing

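Of 561 recomputed log2 fold changes of the 9 genes, 514 kept their direction and side of the threshold, 18 lost a call, 19 gained one and 10 changed sign, none of them called under either setting. With IL-6 against control, set adjustment turned Lgals9 (−0.27) to 0.15 and Vsir (−0.08) to 0.11. Between the cytokines, Cd274 (0.08) was −0.15 after median-ratio rescaling and −0.48 to 0.46 without single libraries, lowest without IL-4 #3, and Havcr2 (−0.05) was 0.17 with length and GC trends removed, 0.13 set-adjusted and −0.28 to 0.13 without single libraries. The number of genes called with IL-4 was 6, and 3 in the set-adjusted fit. With IL-6 it was 2: 1 with limma voom or a pseudocount of 1, 4 with the compared groups alone, 0 in the set-adjusted fit, and 0 to 4 without single libraries. Between the cytokines it was 4: 2 at a mean FPKM of at least 5, where Icosl and Cd276 are no longer tested, and 7 with the adjusted p alone, which adds Vsir, Cd80 and Lgals9. Without single libraries it was 5 to 7 with IL-4 and 4 to 5 between the cytokines. With the mouse number as a replicate block, 6, 2 and 4 genes were called, and no call of the 9 genes changed (Pdcd1lg2 with IL-6 had an adjusted p of 0.0494). Of 81 recomputed ratio differences 76 kept their direction. The 5 that did not are ratios with overlapping groups between IL-6 and control: Pdcd1lg2 to Cd274 was −0.16, 0.039 with a pseudocount of 0.01 and −0.38 to 0.05 without single libraries, and Cd86 to Cd80 was −0.02, 0.0031 with a pseudocount of 1 and −0.13 to 0.13 without single libraries. Paired by mouse, the ratio differences are the same, and an exact sign-flip test of 3 pairs cannot go below 0.25. The low fragment numbers of Pdcd1lg2 in Control (12 to 22) and of Cd276 (47 to 248) limit their precision. The cause of each lost call was not tested.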
